A study of Rattus norvegicus with 6 samples.

Results

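The vitamin D, calcium and Klotho genes are 10 genes for the making, breakdown and sensing of active vitamin D and for calcium reabsorption in the distal nephron. They were found in a table of 31099 probe sets as the probe sets whose single platform gene symbol was Cyp27b1, Cyp24a1, Vdr, Kl, S100g, Calb1, Trpv5, Pvalb, Slc8a1 or Casr. There were 11 such probe sets for 9 of the 10 genes, with 2 each for Trpv5 and Slc8a1. Cyp24a1, the enzyme that breaks down active vitamin D, had no probe set of that symbol and is not analysed here. Kidney RNA came from 3 male Dahl salt-sensitive rats, labelled Dahl(S) and written Dahl S below, and 3 male Lewis rats, with 1 rat on each array. From 5 weeks of age all 6 rats ate food with 8% NaCl, for 8 weeks. Since the Lewis rats received the salt as well, and no group on ordinary food is analysed here, inherited differences and responses to salt cannot be told apart.

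Vitamin D is hydroxylated in the liver and then in the proximal tubule, where the mitochondrial enzyme encoded by Cyp27b1 makes the active hormone. Parathyroid hormone raises this step, and FGF23, acting through FGF receptors with Klotho as co-receptor, lowers it. The hormone binds the nuclear vitamin D receptor, which pairs with a retinoid X receptor and in the distal convoluted and connecting tubule supports calcium uptake through the channel TRPV5, buffering by calbindins, and extrusion by the exchanger NCX1 and plasma membrane calcium pumps. The calcium-sensing receptor of the thick ascending limb curbs calcium and magnesium reabsorption between cells.

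Values below are signals after quantile normalization, which gives each array the same distribution, so a difference is relative to the typical probe set. The values of a strain follow the order of its arrays 1, 2 and 3, by the replicate numbers of the sample titles. Differences are Dahl S minus Lewis on the log2(signal + 16) scale, on which low signals show less than their full change. A probe set was tested if 3 or more of the 6 arrays gave it a normalized signal above 61.8, the overall median. Tests were by limma with Benjamini-Hochberg adjustment over all 15778 probe sets tested, and a probe set was called at an adjusted p under 0.05. Before normalization the median signal of an array lay between 39 and 81.5, and the median difference of the tested probe sets was then 0.41. Arrays correlated at 0.991 to 0.993 within Dahl S, at 0.980 to 0.988 within Lewis and at 0.958 to 0.970 between strains, over probe sets that are no independent replicates. Kidney markers were bright in both strains: normalized log2 means in Dahl S and Lewis were 13.25 and 13.23 for Umod and 12.39 and 12.46 for Lrp2.

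Genes for the making and the sensing of active vitamin D, Cyp27b1 and Vdr, were lower in Dahl S kidneys, as was S100g, the small calbindin gene. Casr, the calcium-sensing receptor gene, was higher. The larger calbindin gene Calb1, the exchanger gene Slc8a1 and Kl did not pass the test, and Trpv5 and Pvalb lay below the level at which probe sets were tested. Of the 11 probe sets 8 were tested, of which 1 was called higher, 3 were called lower and 4 were not called. Among all probe sets tested, 8.51% were called higher and 7.73% lower, 16.2% in all. Strain ranges did not overlap in 6 of the 8 tested probe sets, against 34.5% of all probe sets tested. The median difference of the 7 tested genes, each by its brightest probe set, was -0.31, and that of all tested genes was 0.00448. Cyp27b1 passed the filter on its 3 Lewis arrays alone, so its ranges could not overlap. Without it, ranges did not overlap in 5 of 7 tested probe sets, 2 were called lower and the median of the genes was -0.21.

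**Figure D1:**
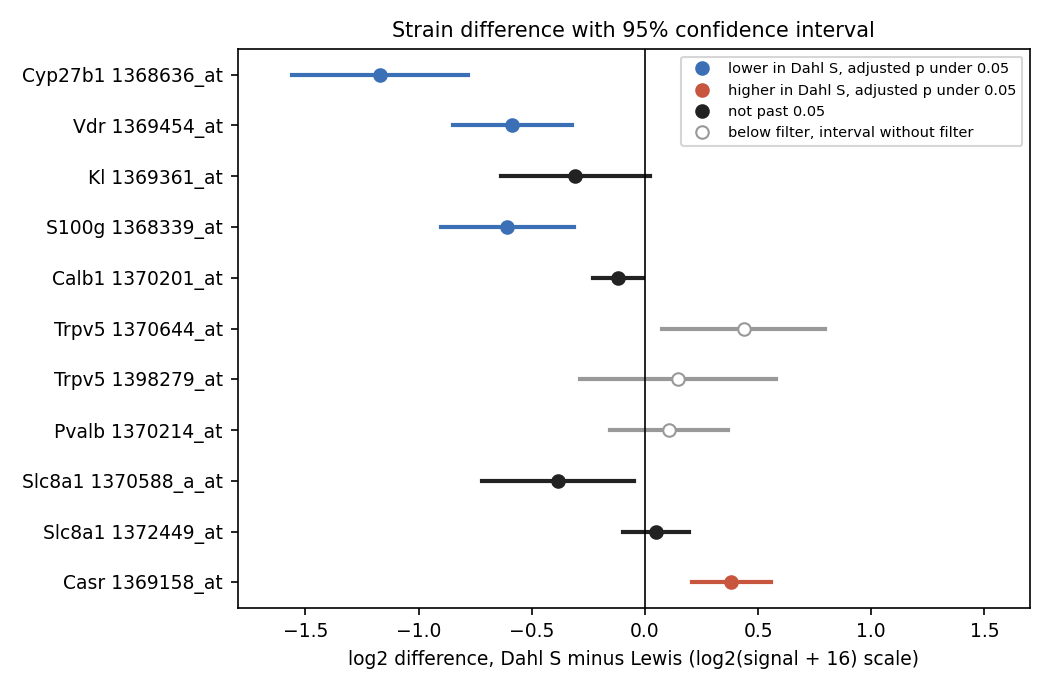
Log2 difference between strains (Dahl S minus Lewis, horizontal axis) for each of the 11 probe sets, with 95% confidence intervals from limma, n = 3 arrays per strain. Besides the called Cyp27b1, Vdr, S100g and Casr, the intervals of Calb1, Slc8a1 1370588_a_at and Trpv5 1370644_at exclude 0 without a call, and open points are probe sets below the filter, whose intervals come from the fit without a filter.

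Cyp27b1 (GRCr8 chromosome 7, 64756626 to 64761570) encodes the 1-alpha-hydroxylase. Its normalized signals were 90.7, 76.7 and 70.2 in Lewis and 18.5, 25.9 and 35.9 in Dahl S. All Lewis arrays were above all Dahl S arrays, and this was also so before normalization, with deposited signals of 56.6, 87.1 and 61.2 in Lewis and 20.1, 34.3 and 35.4 in Dahl S. The mean was 79.2 ± 10.5 in Lewis and 26.8 ± 8.72 in Dahl S (SD, n = 3 each), 2.25-fold lower in Dahl S on the log2(signal + 16) scale (log2 difference -1.17, SE 0.18, limma adjusted p = 0.00076). The probe set passed the filter on the 3 Lewis arrays alone, so a probe set tested on such arrays had to differ. In the fit without a filter, over all probe sets of the table but the controls, the call held (limma adjusted p = 0.0071), also without any 1 array (differences from -1.30 to -1.01, limma adjusted p from 0.013 to 0.036). The signals are dim, and the difference was -1.61 with no pseudocount and -0.66 with one of 64. It was -0.88 (limma adjusted p = 0.12) in the deposited values, where the call was lost.

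Vdr (chromosome 7, 130864764 to 130916757) encodes the vitamin D receptor. Its normalized signals were 211, 170 and 159 in Lewis and 109, 121 and 111 in Dahl S. Lewis array 1 was the highest, and the lowest Lewis array was above the highest Dahl S array. The mean was 180 ± 27.5 in Lewis and 114 ± 6.63 in Dahl S (SD, n = 3 each), 1.50-fold lower in Dahl S (log2 difference -0.59, SE 0.12, limma adjusted p = 0.0057). Leaving out any 1 array gave differences from -0.66 to -0.48, all called in the filtered fits. In the deposited values the difference was -0.17 and not called (limma adjusted p = 0.65).

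**Figure D2:**
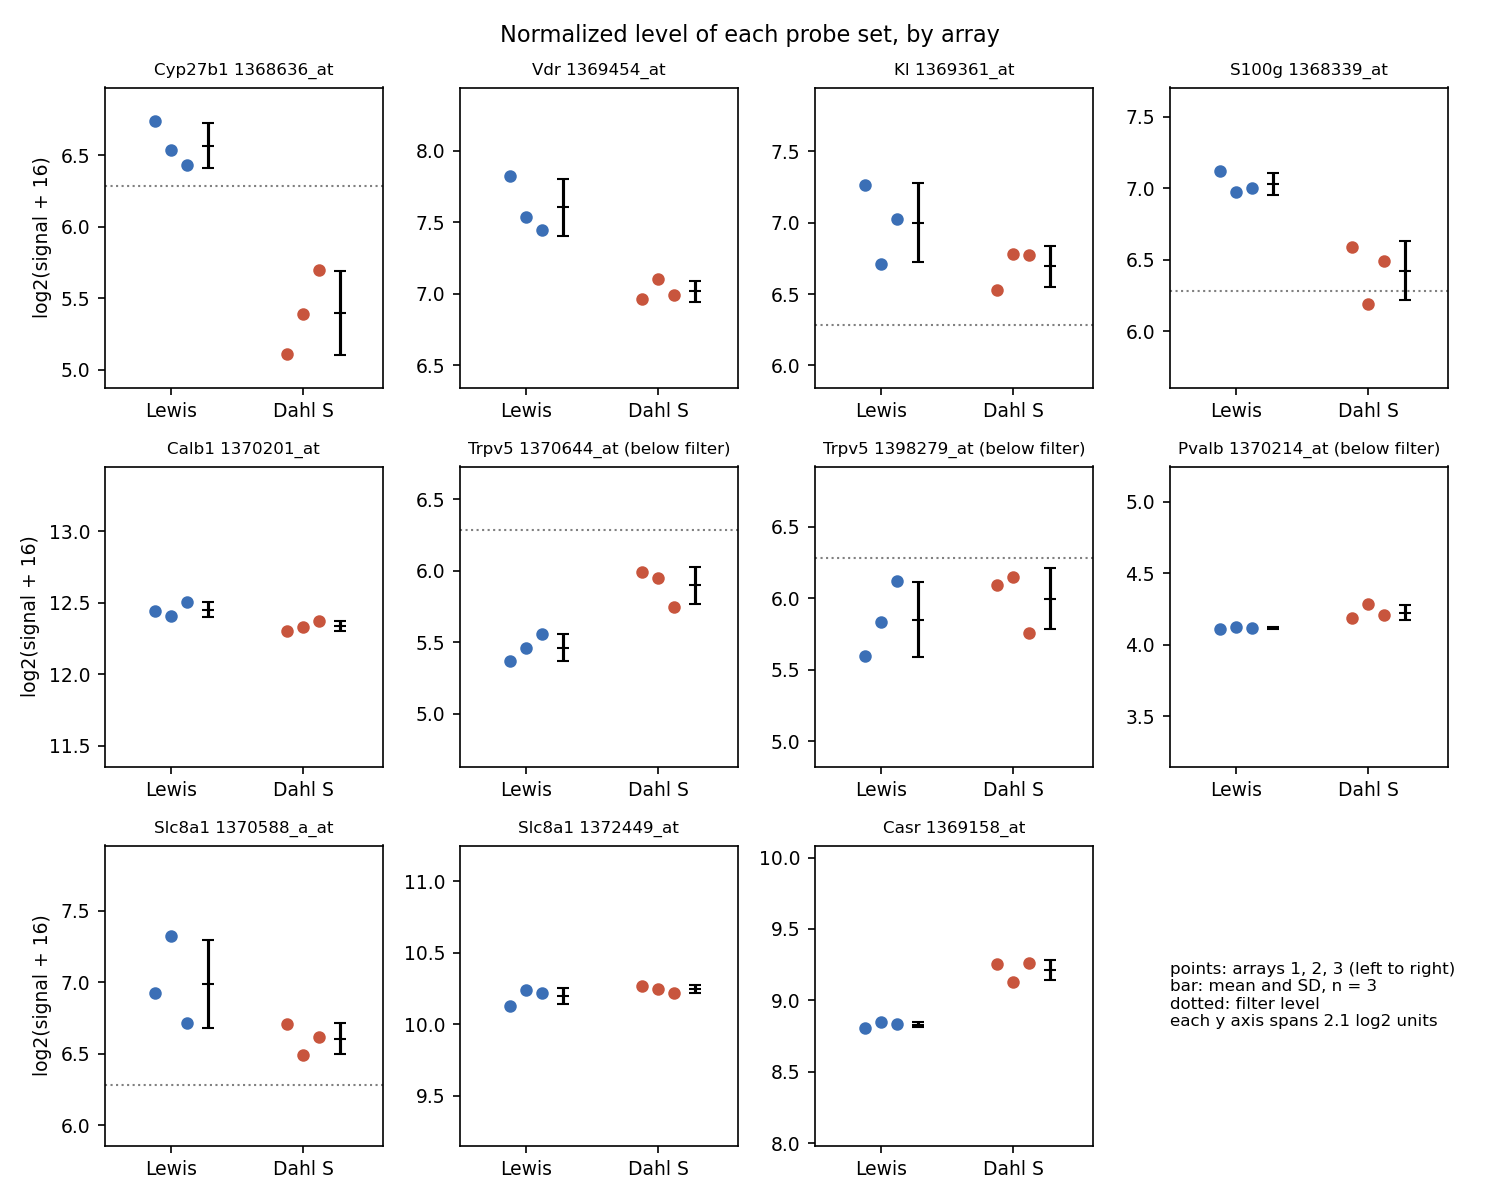
Normalized level, log2(signal + 16), of each probe set in Lewis (blue) and Dahl S (red), with arrays 1, 2 and 3 from left to right within a strain, with the strain's mean and SD in black and the filter level as a dotted line. The strains separate in the called Cyp27b1, Vdr, S100g and Casr and also in Calb1, Pvalb, Slc8a1 1370588_a_at and Trpv5 1370644_at, and they overlap in Kl and in the other Slc8a1 and Trpv5 probe sets.

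The RefSeq table of promoters held 7 of the 10 genes, and the 250 bases before the start site are shown for the called genes it held, so that the sequence before each start can be read beside its difference. Capitals mark matches on either strand to 5 motifs. The first is the box CCAAT, a common element of promoters that binds the factor NF-Y. The second is the box GGGCGG, which the Sp1 family of zinc finger factors is known to recognise. The third is the element TATAAA, where the general transcription machinery can assemble. The fourth is the hexamer AGGTCA, which single members of the nuclear receptor family contact in their response elements. These 4 were matched exactly. The fifth, with at most 2 mismatches allowed, is the direct repeat with a spacer of 3, that is, the hexamer given again after 3 free bases, the form of element the vitamin D receptor is known to bind with its partner. It can overlap a hexamer. The build is GRCr8, and each sequence reads 5′ to 3′ towards the gene.
Cyp27b1, chr7:64756376-64756625, plus strand: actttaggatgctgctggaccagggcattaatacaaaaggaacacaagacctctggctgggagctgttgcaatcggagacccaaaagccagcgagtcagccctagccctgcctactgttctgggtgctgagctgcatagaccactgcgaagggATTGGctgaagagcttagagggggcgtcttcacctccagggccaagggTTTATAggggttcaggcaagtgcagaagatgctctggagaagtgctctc
Vdr, chr7:130916758-130917007, minus strand: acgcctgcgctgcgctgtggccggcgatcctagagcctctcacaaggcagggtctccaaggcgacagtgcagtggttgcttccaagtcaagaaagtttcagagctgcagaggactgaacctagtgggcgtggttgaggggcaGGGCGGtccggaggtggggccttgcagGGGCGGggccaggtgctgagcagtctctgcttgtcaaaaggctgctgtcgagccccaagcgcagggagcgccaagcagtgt
Casr, chr11:77740364-77740613, plus strand: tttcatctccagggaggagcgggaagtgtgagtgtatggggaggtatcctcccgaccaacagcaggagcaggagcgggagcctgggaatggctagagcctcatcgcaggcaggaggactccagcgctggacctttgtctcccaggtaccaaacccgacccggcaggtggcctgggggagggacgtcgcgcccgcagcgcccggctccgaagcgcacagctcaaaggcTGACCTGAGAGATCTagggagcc
The Cyp27b1 window held a CCAAT box on the reverse strand, 97 to 93 bases before the start, and a TATA box, also on that strand, 49 to 44 bases before it. Among 33469 windows of this length, 34.0% held a CCAAT box and 12.9% a TATA box. The Vdr window held 2 GC boxes (GGGCGG), a motif found in 30.5% of windows, and was 63.6% G or C, against a median of 51.2% over all windows. The Casr window lies inside the annotated span of the gene and held 1 hexamer on the reverse strand, found in 14.1% of windows, within a direct repeat with 2 mismatches, found in 2.52%. A match describes the letters of the window and is no evidence of binding.

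Both calbindins buffer calcium on its way through distal tubule cells. S100g (chromosome X, 35337636 to 35340205) encodes calbindin-D9k, and its normalized signals were 123, 110 and 112 in Lewis and 80.3, 57.0 and 74.1 in Dahl S. The strains did not overlap, and Dahl S array 2 was the lowest. The mean was 115 ± 7.18 in Lewis and 70.5 ± 12.1 in Dahl S (SD, n = 3 each), 1.52-fold lower in Dahl S (log2 difference -0.61, SE 0.13, limma adjusted p = 0.0088). The difference ran from -0.68 to -0.49 without any 1 array, and it was -0.23 and not called in the deposited values (limma adjusted p = 0.55).

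Calb1 (chromosome 5, 34172612 to 34199555) encodes calbindin-D28k and had normalized signals of 5557, 5412 and 5800 in Lewis and 5025, 5141 and 5275 in Dahl S. The strains were narrowly apart, and the difference of -0.12 (SE 0.05, 95% interval -0.23 to -0.01, limma adjusted p = 0.14) did not pass. Its direction depended on the scaling, with -0.30 and a call (limma adjusted p = 0.024) under scaling to a common array median, and 0.13 in the deposited values.

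Trpv5 (chromosome 4, 71503085 to 71531134) encodes the channel through which calcium enters distal tubule cells, and both of its probe sets were below the filter on every array. Probe set 1370644_at had normalized signals of 25.2, 28.1 and 31.0 in Lewis and 47.6, 45.8 and 37.7 in Dahl S. All Dahl S arrays were above all Lewis arrays, yet the fit without a filter gave 0.44 with an adjusted p of 0.16 by limma. For probe set 1398279_at the signals were 32.3, 41.1 and 53.6 in Lewis and 52.1, 54.9 and 38.0 in Dahl S. Here the strains overlapped, and the difference was 0.15 (limma adjusted p = 0.73 without a filter). Neither probe set was called, and without a filter the 95% interval ran from 0.08 to 0.80 for the first and from -0.29 to 0.58 for the second.

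Pvalb (chromosome 7, 111653820 to 111668469) encodes parvalbumin, a calcium buffer of fast muscle and of the early distal convoluted tubule. Its normalized signals were 1.26 to 1.45 in Lewis and 2.18 to 3.45 in Dahl S, near the bottom of the scale on every array. The fit without a filter gave 0.11 (limma adjusted p = 0.67). Of 7 skeletal muscle markers on the array, 6 were below the filter on all 6 arrays, among them Ckm and Myh4. In the fit without a filter Acta1, also one of the 6, was higher in Dahl S (1.26, limma adjusted p = 0.0074), named after its value was seen. The 1 muscle marker tested, Tnni2, gave -0.18 without a call. Summed normalized signals of the muscle markers overlapped, at 148 to 159 in Dahl S and 126 to 161 in Lewis.

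Slc8a1 (chromosome 6, 18975498 to 19299704) encodes NCX1, which moves calcium out of the cell in exchange for sodium, and its probe sets differed from each other. For probe set 1372449_at the normalized signals were 1106, 1194 and 1177 in Lewis and 1220, 1201 and 1177 in Dahl S. The strains overlapped (difference 0.05, 95% interval -0.10 to 0.20, limma adjusted p = 0.68). For the dimmer probe set 1370588_a_at the signals were 106, 144 and 89.4 in Lewis and 88.6, 74.1 and 82.2 in Dahl S. Lewis array 2 stood highest and Lewis array 3 lay just above the highest Dahl S array, and the difference of -0.38 (SE 0.15, limma adjusted p = 0.12) did not pass. It was -0.22 without Lewis array 2 and passed without Lewis array 3 (-0.52, limma adjusted p = 0.040). The part of the transcripts that each probe set reads was not examined.

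Kl (chromosome 12, 5326003 to 5367016) encodes Klotho, the co-receptor for FGF23, which is made mainly in the distal convoluted tubule. Its normalized signals were 138, 88.7 and 114 in Lewis and 76.2, 93.8 and 93.3 in Dahl S. Lewis array 2 lay among the Dahl S arrays. The difference was -0.31 (SE 0.15, 95% interval -0.64 to 0.02, limma adjusted p = 0.20), and it ran from -0.45 without Lewis array 2 to -0.18 without Lewis array 1. In the deposited values it was 0.10.

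Casr (chromosome 11, 77738398 to 77813639) encodes the calcium-sensing receptor. Its normalized signals were 433, 446 and 441 in Lewis and 594, 544 and 597 in Dahl S. The Lewis arrays were close together, and all Dahl S arrays were above them, as they were before normalization, with deposited signals of 258, 522 and 393 in Lewis and 693, 704 and 637 in Dahl S. The mean was 440 ± 6.50 in Lewis and 578 ± 29.7 in Dahl S (SD, n = 3 each), or 1.30-fold more in Dahl S (difference 0.38, SE 0.08, limma adjusted p = 0.0063). Without Dahl S array 3 the difference was 0.36 and the call was lost (limma adjusted p = 0.053). The deposited values gave 0.82 without a call (limma adjusted p = 0.16), where all tested probe sets were shifted by 0.41.

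The other genes of the pathway were described through 7 lists holding 90 genes, of which 66 were tested. Of these, 6 were higher in Dahl S, 10 were lower and 50 did not pass, so 24.2% were called against 16.6% of all 9535 genes tested. The lists were chosen with earlier results of these data known, so these shares are no test of an excess. The background shares, of the main fit only, were 9.04% higher and 7.59% lower. With Dahl S array 1 left out, 5 genes were higher and 6 lower. With array 2 of that strain left out they were 4 and 6, and with array 3 left out 5 and 5. Without Lewis array 1 they were 6 and 7, and without Lewis array 2 they were 5 and 7. Without the filter 5 were higher and 5 lower, and the calls of Rxra, Atp2b4, Pth1r, Cldn16, Fxyd2 and Nherf1 described below were lost. Calls over all probe sets fell as well, from 1342 higher and 1219 lower in the main fit to 1084 and 949 without the filter, where more probe sets were tested. Background shares matching these other fits were not worked out. The median difference of the 66 genes was -0.07.

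**Figure D3:**
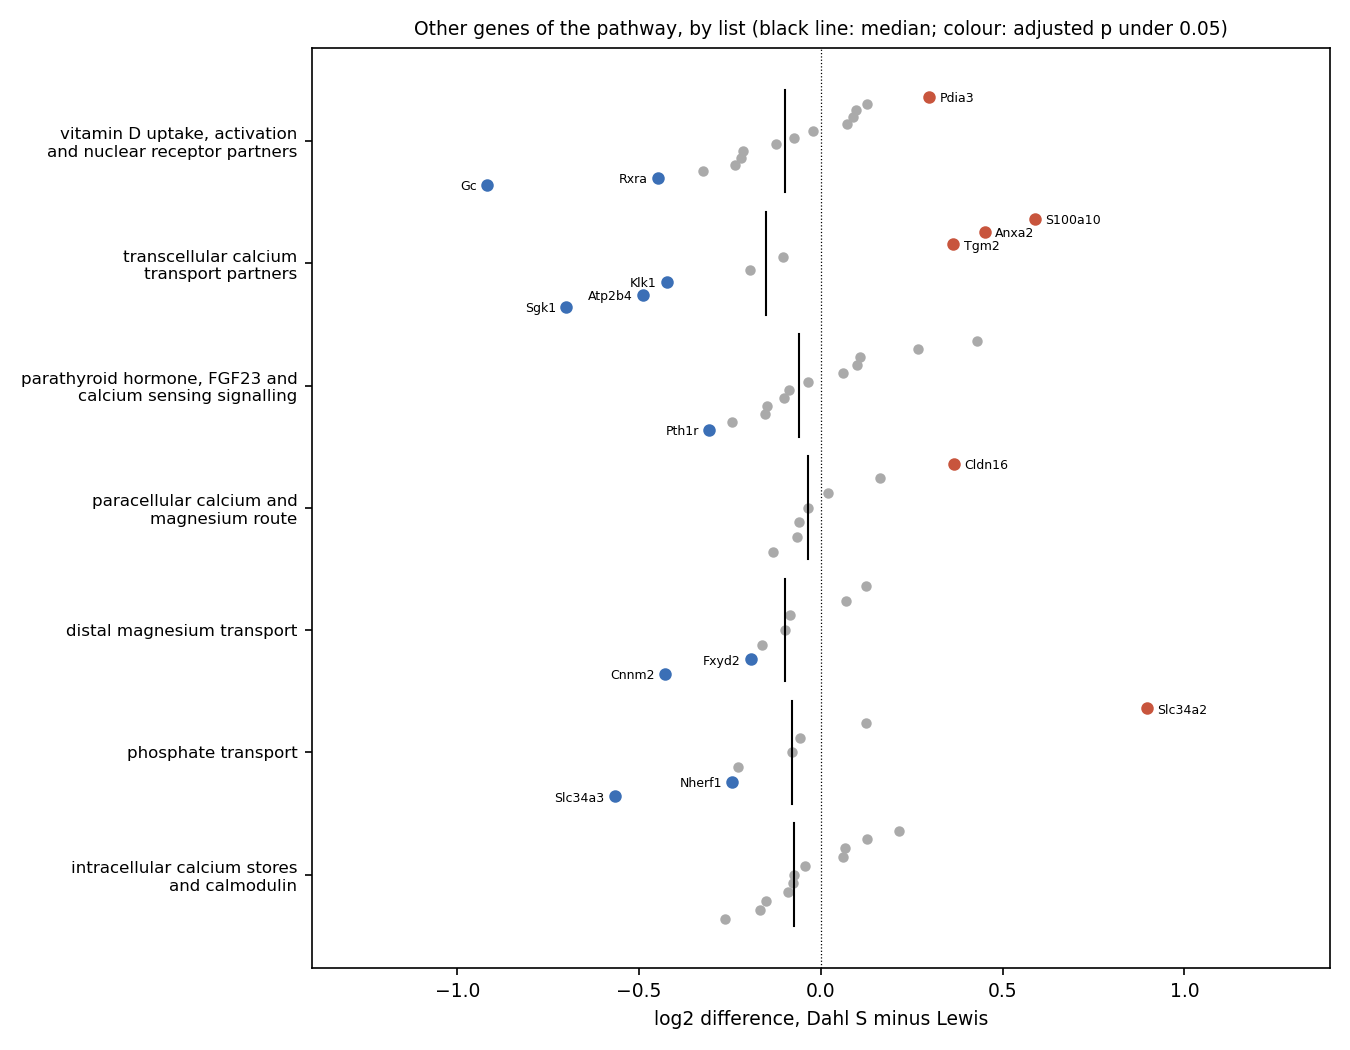
Log2 difference between strains (Dahl S minus Lewis) of each tested gene in the 7 pathway lists, 1 point per gene, with the list's median as a black line and genes at an adjusted p under 0.05 named and coloured. Called genes lie on both sides of 0 in the lists of vitamin D uptake, transcellular calcium transport and phosphate transport. No gene of the calcium store list was called by its brightest probe set.

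Among genes for vitamin D uptake, activation and receptor partners, 1 of 14 was higher, 2 were lower and 11 did not pass, with a median of -0.10. Gc, which encodes the vitamin D binding protein of plasma, was the lowest (-0.92, SE 0.08, limma adjusted p = 6.0e-06), and its other probe set gave -0.63 (limma adjusted p = 0.0065). Rxra, a retinoid X receptor that partners the vitamin D receptor, was lower (-0.45, SE 0.14, limma adjusted p = 0.047). Its call was lost without Lewis array 1 (-0.32), Lewis array 3 (-0.49), or Dahl S array 1 (-0.45), 2 (-0.46) or 3 (-0.42), and with the replicate number as a block (limma adjusted p = 0.052). Pdia3, a protein disulfide isomerase also described as a membrane binding protein for the hormone, was higher (0.30, SE 0.06, limma adjusted p = 0.0035), but not with arrays scaled to a common median (0.17, limma adjusted p = 0.21). The 25-hydroxylase gene Cyp27a1 gave -0.22 (SE 0.13, limma adjusted p = 0.27). Cyp2r1 is not analysed here. Megalin and cubilin, which take up the filtered binding protein with its vitamin D, gave -0.07 for Lrp2 and 0.13 for Cubn, and neither passed (limma adjusted p = 0.36 and 0.20). With arrays scaled to a common median Lrp2 was called lower (-0.26, limma adjusted p = 0.045). Lrp2 and Cubn were named after their values were seen, as was Ncor1, which did not pass by its brightest probe set. Of its dimmer probe sets, 1372102_at was called lower (-0.86, limma adjusted p = 0.00019). The other, 1384293_at, gave 0.20 without a call (limma adjusted p = 0.28).

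Partners of transcellular calcium transport had 3 of 8 tested genes higher, 3 lower and 2 not past the threshold, with a median of -0.15. S100a10 (0.59, SE 0.07, limma adjusted p = 7.3e-05) and Anxa2 (0.45, SE 0.07, limma adjusted p = 0.00061), which encode the complex that carries TRPV5 to the membrane, were higher. A dim Anxa2 probe set below the filter gave -0.53, against this direction. Klk1, tissue kallikrein, a connecting tubule protease that stabilizes TRPV5 at the membrane, was lower (-0.42, SE 0.06, limma adjusted p = 0.00056). Sgk1, a hormone-induced kinase that acts on channels and transporters of the distal nephron, was lower as well (-0.70, SE 0.06, limma adjusted p = 1.1e-05). The other called genes, named after their values were seen, were Atp2b4, a plasma membrane calcium pump gene (-0.49, limma adjusted p = 0.024), and Tgm2, a transglutaminase gene (0.36, limma adjusted p = 0.0099). The Atp2b4 call was lost without Lewis array 3 (-0.46), Dahl S array 1 (-0.42) or Dahl S array 3 (-0.45). The Tgm2 call was lost without Dahl S array 2 (0.30), and its other probe set gave 0.32 without a call (limma adjusted p = 0.087). The pump gene Atp2b1 gave -0.10 (SE 0.08, limma adjusted p = 0.42). Nipsnap1 did not pass by its brightest probe set. A dimmer one was called lower (-0.29, limma adjusted p = 0.025), and it was named after its value was seen. Trpv6, the close relative of Trpv5, was below the filter with normalized log2 means of 5.95 in Dahl S and 5.75 in Lewis. Kallikrein genes form a family of close relatives in the rat, so the Klk1 signal may hold signal from others.

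In the list of parathyroid hormone, FGF23 and calcium sensing signalling, 0 of 12 tested genes were called higher by limma, 1 was lower and 11 did not pass (median -0.06). In the same fit 29.8% of all probe sets had an unadjusted p under 0.05. The gene lower in Dahl S was Pth1r, the parathyroid hormone receptor (-0.31, SE 0.08, limma adjusted p = 0.019), a call lost without Lewis array 2 (-0.29), Dahl S array 2 (-0.27) or Dahl S array 3 (-0.31). Fgfr1, a receptor for FGF23 with Klotho, gave -0.03 (SE 0.11, limma adjusted p = 0.87). Fgf23 itself, a bone hormone, was below the filter. Calcr and Stc1, named after their values were seen, were not called in the main fit. Calcr was called higher with arrays scaled to a common median (0.44), with a pseudocount of 64 (0.27) and without Lewis array 3 (0.51). It was also called higher without a variance trend (0.43), where the Pth1r call was lost. Stc1 was called higher without Lewis array 1 (0.29).

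Of 7 tested genes for the paracellular route, 1 was higher and 6 did not pass (median -0.03). It was Cldn16, a tight junction claudin of the thick ascending limb that is needed for magnesium and calcium reabsorption (0.37, SE 0.11, limma adjusted p = 0.035). Its call was lost without Lewis array 1 (0.29) or 2 (0.39) and without Dahl S array 1 (0.39), 2 (0.42) or 3 (0.29). Umod, uromodulin, gave 0.02 (SE 0.04), but -0.32 and a call when arrays were scaled to a common median (limma adjusted p = 0.041). Of 7 genes for distal magnesium transport, 0 were higher, 2 were lower and 5 did not pass (median -0.10). Cnnm2, a basolateral magnesium transport gene, was lower (-0.43, SE 0.09, limma adjusted p = 0.0070), as was Fxyd2, the gamma subunit of the sodium pump (-0.19, SE 0.06, limma adjusted p = 0.041). The Fxyd2 call was lost without Lewis array 1 (-0.12) or 2 (-0.20) and without Dahl S array 1 (-0.19), 2 (-0.20) or 3 (-0.21). It was also lost without a variance trend. Egf, named after its value was seen, was not called in the main fit. It was called lower with arrays scaled to a common median (-0.36, limma adjusted p = 0.014) and without Lewis array 3 (-0.20, limma adjusted p = 0.031). Trpm6 is not analysed here.

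Phosphate transport is under the same hormones. Of 7 genes 1 was higher, 2 were lower and 4 did not pass (median -0.08). Slc34a2, a sodium-phosphate cotransporter known mainly from lung and intestine, was higher (0.90, SE 0.08, limma adjusted p = 9.5e-06), and Slc34a3, a cotransporter of the proximal tubule brush border, was lower (-0.57, SE 0.09, limma adjusted p = 0.0014). Nherf1, a scaffold for these transporters, was lower (-0.24, SE 0.07, limma adjusted p = 0.031), a call lost without Lewis array 1 (-0.18) or 2 (-0.26) and without Dahl S array 1 (-0.21), 2 (-0.27) or 3 (-0.26), and its other probe set gave -0.23 (limma adjusted p = 0.27). The main cotransporter gene Slc34a1 gave -0.06 by its brighter probe set (SE 0.06, limma adjusted p = 0.55; -0.34 and a call when arrays were scaled to a common median) and -0.62 by its other one (limma adjusted p = 0.0022), so its probe sets disagreed. In the list of calcium stores and calmodulin, 0 of 11 genes passed by limma, each by its brightest probe set (median -0.07). Of the dimmer Canx probe sets, named after their values were seen, 1371687_at was called lower (-0.26, limma adjusted p = 0.022). The other, 1371686_at, gave -0.0040 (limma adjusted p = 0.98).

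Markers of several cell types moved with the strains, and in whole kidney fewer cells of a type and less RNA per cell cannot be told apart. Proximal tubule markers, of the cells that make active vitamin D, were lower in Dahl S for 4 of 9 genes (7 when arrays were scaled to a common median), and their summed normalized signal was 29504 to 30316 in Dahl S and 33747 to 36085 in Lewis. They were the transporter genes Slc5a12 (-0.84), Slc13a3 (-0.80) and Slc22a6 (-0.68) and the water channel gene Aqp1 (-0.17), the last with its sign turned in the deposited values. The Aqp1 call was lost without Lewis array 2 or 3 and without Dahl S array 2 or 3. It was also lost without the filter and without a variance trend. Other probe sets, named after their values were seen, were called lower too. Aqp1 1387651_at gave -0.32 (limma adjusted p = 0.0018, and 0.014 without the filter). Hnf4a did not pass by its brightest probe set, but 1369289_at gave -0.55 (limma adjusted p = 0.00079) and 1382496_at gave -0.50 (limma adjusted p = 0.0034). Distal convoluted and connecting tubule markers were lower for 4 of 9 tested genes (3 without Lewis array 1 or 3 or Dahl S array 3, 2 without any 1 of the others, and 2 without the filter, while without Lewis array 1 the kinase gene Wnk1 was called higher, at 0.17), with sums of 7492 to 7949 in Dahl S and 8412 to 9848 in Lewis. They were Emx1 (-0.60), the sodium channel subunit gene Scnn1a (-0.52), Klk1 and the potassium channel gene Kcnj1 (-0.28, with its sign turned in the deposited values). The Scnn1a and Kcnj1 calls were also lost without a variance trend. Another Scnn1a probe set, 1368203_at, gave -0.47 without a call (limma adjusted p = 0.17). In that list the cotransporter gene Slc12a3 gave -0.40 (SE 0.22, limma adjusted p = 0.26). Thick ascending limb markers, of the cells that carry most calcium-sensing receptor, were called for 1 of 5 genes, Cldn16 with the limits above, with sums of 14417 to 14606 in Dahl S and 13955 to 14419 in Lewis.

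Macrophage markers were higher for 4 of 5 tested genes (2 without Dahl S array 1), with sums of 4207 to 4355 in Dahl S and 3450 to 3550 in Lewis, and Cd163 and Itgam were below the filter on all arrays. The 4 were Aif1 (0.83), Cd68 (0.61), Csf1r (0.48) and Lyz2 (0.23). The Csf1r call was lost without Dahl S array 1 or 2, and the Lyz2 call without Dahl S array 1 or 3 and without a variance trend. Lyz2 gave 0.08 without a call (limma adjusted p = 0.61) when arrays were scaled to a common median. Erythrocyte markers were higher for 3 of 4 genes (0 without Dahl S array 2, 2 without Dahl S array 3 and 1 without the filter), with sums of 5835 to 6343 in Dahl S and 4067 to 5240 in Lewis, and these were the globin genes Hba-a3 (0.57) and Hbb (0.34), which close copies may share, and Alas2 (0.56). The Hbb call was also lost without a variance trend and when arrays were scaled to a common median (0.19, limma adjusted p = 0.28). Smooth muscle and pericyte markers were higher for 2 of 5 tested genes, Tagln (0.84) and Des (0.63), and for 1 without Dahl S array 1, with sums of 1290 to 1355 in Dahl S and 844 to 1165 in Lewis. The median of the 5 was 0.04, so the 3 that did not pass gave 0.04 or less. The sums include Tagln and Des. Of 7 collecting duct markers, Atp6v1g3 was higher (0.43) and Aqp3 lower (-0.29). The Aqp3 call was lost without Dahl S array 1 (-0.25) or 3 (-0.31) and without a variance trend, and without Lewis array 1 Aqp2 (-0.22) and Avpr2 (-0.38) were called lower as well. Adrenal markers and parathyroid and thyroid markers had no tested gene. The part of these shifts in the differences of Cyp27b1, Vdr, S100g and Casr was not tested.

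**Figure D4:**
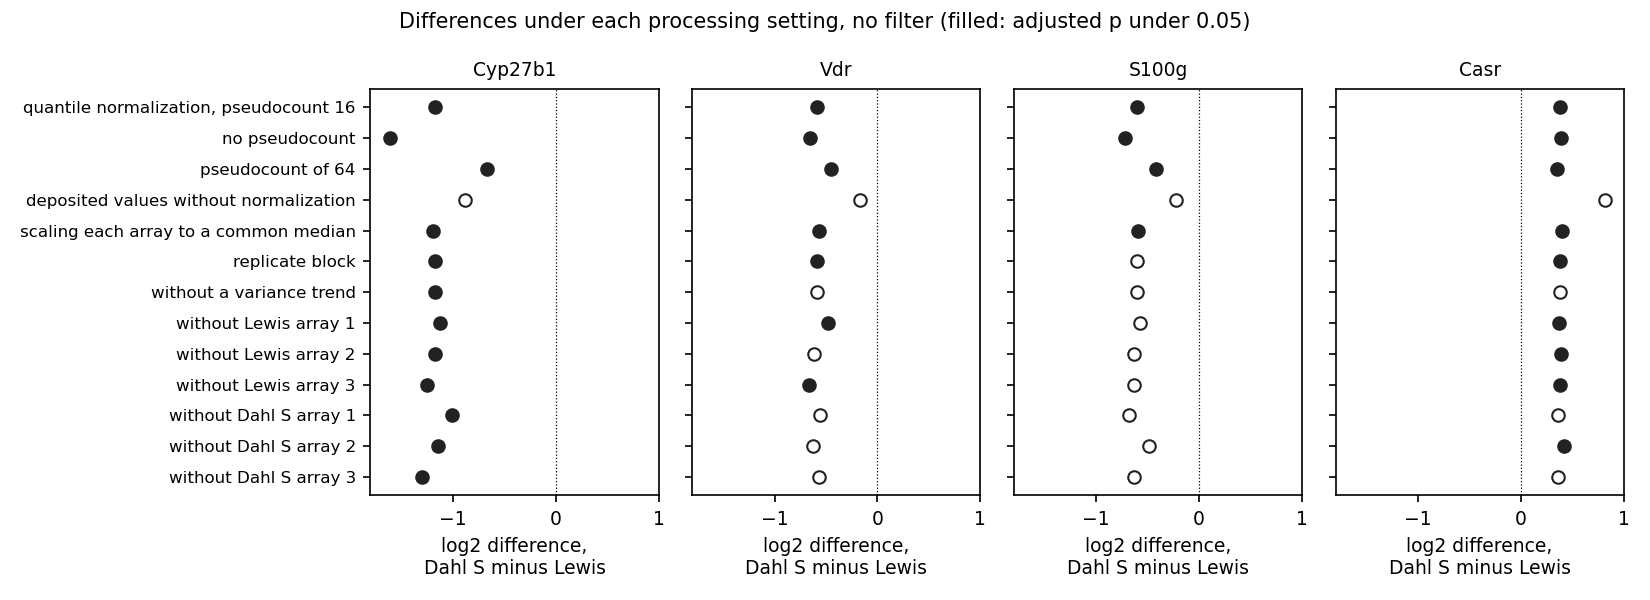
Log2 difference between strains (Dahl S minus Lewis, horizontal axis) for the 4 called genes under each processing setting, without a filter on low values, where filled points have an adjusted p under 0.05. Each gene kept its direction in every setting shown; calls were lost in 1 setting for Cyp27b1 (the deposited values), in 4 for Casr, 6 for Vdr and 9 for S100g.

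The 4 called genes kept their direction in all settings run, as the plot of settings shows. Without a filter more probe sets enter the adjustment, and with 1 array left out Vdr then gave adjusted p-values by limma of up to 0.10, S100g from 0.067 to 0.12 and Casr up to 0.075. These combined settings were chosen after the data were seen.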

How the data were processed

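Signal intensities of whole-kidney RNA were compared between 3 Dahl S and 3 Lewis rats, grouped by the sample titles, which number the replicates within a strain. The deposited table holds 1 linear intensity per probe set and array. Per the labels, the authors used GeneChip Operating Software 1.4 for it. Its scaling target is not given in the sources used here.

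Intensities were quantile-normalized as log2(signal + 16) and filtered as described above. After removing 57 control probe sets, they were fitted with limma 3.58.1 in R 4.3.3 (two-sided, eBayes with trend). With 3 arrays against 3, an exact permutation test cannot give a p below 0.1, and the number of arrays limits the precision. Symbols came from the platform annotation, updated by gene ID to RefSeq (GRCr8), with 1 symbol for 20826 probe sets, several for 436 and none for 9780. A gene was represented by its brightest tested probe set. Sequences are from RefSeq, build GRCr8.

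Members and lists were chosen with earlier results of these data known. All members were named, with up to 4 called genes of each list and 11 fixed genes, of which those with no probe set are not analysed here. Alternatives covered the pseudocount, normalization, filter, variance trend, replicate block and leaving out each array. A trial of the fit on simulated data was made, but its outcome is not given here.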

Additional observations from a re-analysis of the deposited data

How the results depend on the processing

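Without normalization, 666 probe sets were called higher and 47 lower, and 0 of the member probe sets in either direction. Of the pathway lists 1 gene, Slc34a2, was then called, and of the marker lists Tagln, Des, Cd68, Aif1 and Alas2. There Kl (0.10), Calb1 (0.13), Aqp3 (0.10), Kcnj1 (0.085), Fxyd2 (0.00021), Pth1r (0.047), Nherf1 (0.057), Aqp1 (0.067), Cyp27a1 (0.20), Atp2b1 (0.32), Fgfr1 (0.41), Slc34a1 (0.10) and Slc12a3 (0.025) changed sign, in values shifted by 0.41 at the median. Scaling to a common median turned Umod to -0.32. With 1 array left out Fgfr1 ran from -0.13 (Lewis array 3) to 0.053 (Lewis array 1), positive also for Dahl S array 1 (0.010). The stricter filter left 1 of the described probe sets called lower, since Cyp27b1 and S100g were then not tested. Without any 1 array, 660 to 1433 probe sets were called higher and 714 to 1239 lower, and of the described probe sets 0 to 1 higher and 2 to 3 lower; Cyp27b1 did not pass the filter without any 1 Lewis array. Same-numbered arrays of the strains did not deviate together (correlations -0.05, -0.10 and 0.11), and not every array correlated best with its own number; the replicate block gave 1290 higher and 1195 lower, with 1 and 3 of the described probe sets. Over the tested member probe sets, 98 of 106 alternative values kept direction and side of the threshold. This count includes probe sets not called in the main fit, and leaves out fits in which a probe set was not tested. Without a filter, of 13 settings the call was lost in 1 for Cyp27b1, 4 for Casr, 6 for Vdr and 9 for S100g. The cause of these changes was not tested, apart from the filter's own construction. Dim signals limit Cyp27b1, Trpv5 and Pvalb.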
